A study of Mus musculus with 16 samples.

Results

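The 10 genes described here, *Ryr1*, *Cacna1s*, *Cacnb1*, *Cacng1*, *Casq1*, *Casq2*, *Atp2a1*, *Atp2a2*, *Sln* and *Pln*, encode the release and reuptake of calcium at the triad of skeletal muscle. They were chosen by name for their role, and all 10 of them were found by Entrez identifier among the 24454 genes of the deposited count table and were among the 15487 genes tested. *Gastrocnemius* RNA was taken at 3 months of age from HSALR mice, a model of myotonic dystrophy type I, and from FVB/N control mice (called FVB here). HSALR mice were homozygous for a transgene in which the human skeletal actin gene carries long CTG repeats; it is expressed in skeletal muscle, and all of these mice came from 1 line on the FVB/N background. Mice of both genotypes received either vehicle or AICAR, an activator of the energy sensor AMPK, at 500 mg/kg for 7 days. The groups held 3 FVB mice with vehicle, 5 HSALR mice with vehicle, 3 FVB mice with AICAR and 5 HSALR mice with AICAR, 1 library per mouse. The human transgene has no entry of its own among the genes used here, so the genotype labels could not be checked on it.

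At the triad, a transverse tubule of the surface membrane lies between terminal cisternae of the sarcoplasmic reticulum. Depolarisation moves the voltage sensor in the tubule, a calcium channel that in skeletal muscle opens the release channel of the reticulum by mechanical contact. Calsequestrins hold calcium in the lumen of the reticulum, and the SERCA pumps return it there during relaxation. Small membrane peptides, sarcolipin and phospholamban among them, bind the pumps and lower their activity. Fast and slow fibres use partly different genes for the same task: SERCA1 and calsequestrin 1 prevail in fast fibres, whereas SERCA2 and calsequestrin 2 are the forms of slow fibres and heart. *Gastrocnemius* of mice is a mainly fast muscle.

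The 16 libraries held between 64890014 and 81987726 counts, and the 10 genes together took a mean of 3.56% to 4.10% of the counts of a library in the 4 groups. Levels are given as counts relative to the TMM-scaled library total (normalised CPM), and levels of different genes are compared only after division by gene length (normalised RPKM). All 5 of 5 skeletal muscle markers were detected, with a summed level of 58969 to 78884 normalised CPM. Of 6 cardiac markers, *Nppa*, *Nppb* and *Myl7* had at most 4 counts in any library and *Tnni3* at most 22. *Tnnt2* was detected in every library, at 123 to 474 counts, and reads of *Myh6* (10830 to 86297 counts) can be shared with the near-identical *Myh7*. The summed level of 7 slow fibre markers (*Myh7*, *Myl2*, *Myl3*, *Tnnt1*, *Tnni1*, *Tnnc1* and *Tpm3*) ran from 1619 to 4929 normalised CPM in 15 libraries and reached 11851 in FVB mouse S450 of the vehicle group, which therefore stands apart for any gene of slow fibres. The sum of 6 epidermis markers was 2.01 to 3.40 normalised CPM in 10 libraries and 25.4 to 257 in the other 6, which fell in every group except HSALR with AICAR. All 3 endothelium markers together were lower in HSALR (126 to 158 normalised CPM) than in FVB mice (193 to 218) with vehicle. With vehicle the sum of 5 smooth muscle markers was also lower in HSALR mice, at 183 to 230 normalised CPM against 235 to 313, and that of 2 satellite cell markers (*Pax7* and *Myf5*) was higher, at 2.89 to 3.89 against 1.43 to 2.73, both without overlap. After AICAR the endothelium sum was again lower in HSALR mice (155 to 169 against 211 to 215), and the satellite cell sum higher (2.22 to 2.65 against 0.916 to 1.32). Smooth muscle was at 162 to 182 in HSALR and 185 to 266 in FVB mice with AICAR. The HSALR range with AICAR thus lay below that with vehicle. With AICAR in HSALR mice 2 of 4 fibroblast markers were called lower, beside 13.0% of all genes. The part of these cells in the results was not tested.

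The 2 pump inhibitors are encoded by very short reading frames, which are shown because *Sln* carried the largest difference of the 10 genes. Each is given with its start and stop codon in capitals, from GENCODE M21 on GRCm38 (mm10), plus strand. The *Sln* frame lies at chr9:53853473-53853568 and that of *Pln* at chr10:53343864-53344022, each within 1 exon.
Sln: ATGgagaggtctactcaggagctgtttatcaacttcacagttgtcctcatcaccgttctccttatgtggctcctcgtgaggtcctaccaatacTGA
Pln: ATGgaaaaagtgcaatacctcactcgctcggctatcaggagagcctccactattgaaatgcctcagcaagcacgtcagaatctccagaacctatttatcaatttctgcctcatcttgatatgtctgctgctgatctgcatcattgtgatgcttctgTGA
The first frame has 31 codons before the stop and the second 52.

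*Sln* encodes sarcolipin, an inhibitor of the SERCA pumps that is abundant in atria and in slow and developing muscle. In FVB mice with vehicle its level was 12.8, 14.1 and 27.9 normalised CPM. In HSALR mice with vehicle it was 142, 225, 252, 326 and 343 normalised CPM, and every HSALR mouse lay above the highest control. The fitted difference was 3.82 on the log2 scale (SE 0.42, a 14.1-fold higher level, adjusted p = 1.28e-05, edgeR quasi-likelihood test). No library of the FVB group reached the range of the HSALR group, with or without mouse S450.

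After AICAR, *Sln* was at 5.76, 14.4 and 18.9 normalised CPM in FVB mice. The 5 HSALR mice with AICAR had 86.2, 86.7, 96.4, 106 and 151 normalised CPM, again all above the FVB mice. The genotype difference after AICAR was 3.01 (SE 0.41, adjusted p = 1.32e-04, edgeR). Within HSALR mice *Sln* fell by 1.29 on the log2 scale with AICAR (SE 0.31, adjusted p = 0.00634, edgeR), from a mean of 258 ± 81.5 (SD, n = 5) to 105 ± 26.6 normalised CPM (SD, n = 5). The 2 groups overlapped in a single pair: the lowest vehicle mouse, S452, at 142 lay just below the highest AICAR mouse, S460, at 151.

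In FVB mice the same treatment gave a difference in *Sln* of -0.48 (SE 0.40, adjusted p = 0.470, edgeR), which ranged from -0.85 without FVB mouse S447 to -0.04 without S450. The difference between the 2 AICAR effects was -0.81 (95% interval -1.89 to 0.27, adjusted p = 0.477, edgeR), or -1.25 without S450 and -0.44 without S447, so that an AICAR effect particular to HSALR mice was not shown. HSALR mice with AICAR were above FVB mice with vehicle by 2.53 (SE 0.40, adjusted p = 1.90e-04, edgeR), that is 5.76-fold. The slow fibre sum was 3865 to 11851 normalised CPM in FVB mice with vehicle and 2444 to 3702 in HSALR mice with vehicle, and the summed level of the 6 cardiac markers was 378 to 1179 and 222 to 310; their part in the *Sln* result was not tested.

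*Pln* encodes phospholamban, the inhibitor of SERCA2 best known from the heart and slow muscle. It was the least abundant member, at 6.92, 8.14 and 8.41 normalised CPM in FVB mice with vehicle and 4.37 to 16.4, with a median of 8.78, in HSALR mice with vehicle. The highest value was that of HSALR mouse S452. *Pln* passed the edgeR test in none of the 6 comparisons, nor at an unadjusted p under 0.05, and its genotype difference after vehicle had a wide interval around 0 (0.22, 95% interval -0.49 to 0.93). Without mouse S452 the fitted difference was -0.12. For AICAR in HSALR mice *Pln* passed when vehicle mouse S459 was left out (-0.78, adjusted p = 0.0414, edgeR).

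The ratio of *Sln* to *Pln* within a library does not depend on how libraries are scaled. Per base of gene length, *Sln* had 8.01, 8.80 and 16.3 reads for each read of *Pln* in FVB mice with vehicle. In HSALR mice with vehicle the ratio was 41.3, 122, 172, 172 and 374. The groups were separate, and the difference of 3.75 in log2 ratio gave p = 0.0179 by a two-sided exact permutation test, the smallest p that 5 mice against 3 allow (adjusted p = 0.0952 over 16 ratio tests). Leaving out 1 mouse gave differences of 3.40 to 4.20, with an exact permutation p of 0.0571 without HSALR mouse S451, S453 or S458 and of 0.0286 to 0.0476 in the other 5 cases. After AICAR the HSALR ratio of 50.4 to 152 was also separate from the 4.62 to 13.8 of FVB mice, at the same p and adjusted p by the exact permutation test. Within HSALR mice the mean log2 ratio with AICAR minus that with vehicle was -0.76, with overlapping groups (exact permutation p = 0.246, adjusted p = 0.328); without vehicle mouse S452 it was -1.20 (exact permutation p = 0.0317).

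**Figure D1:**
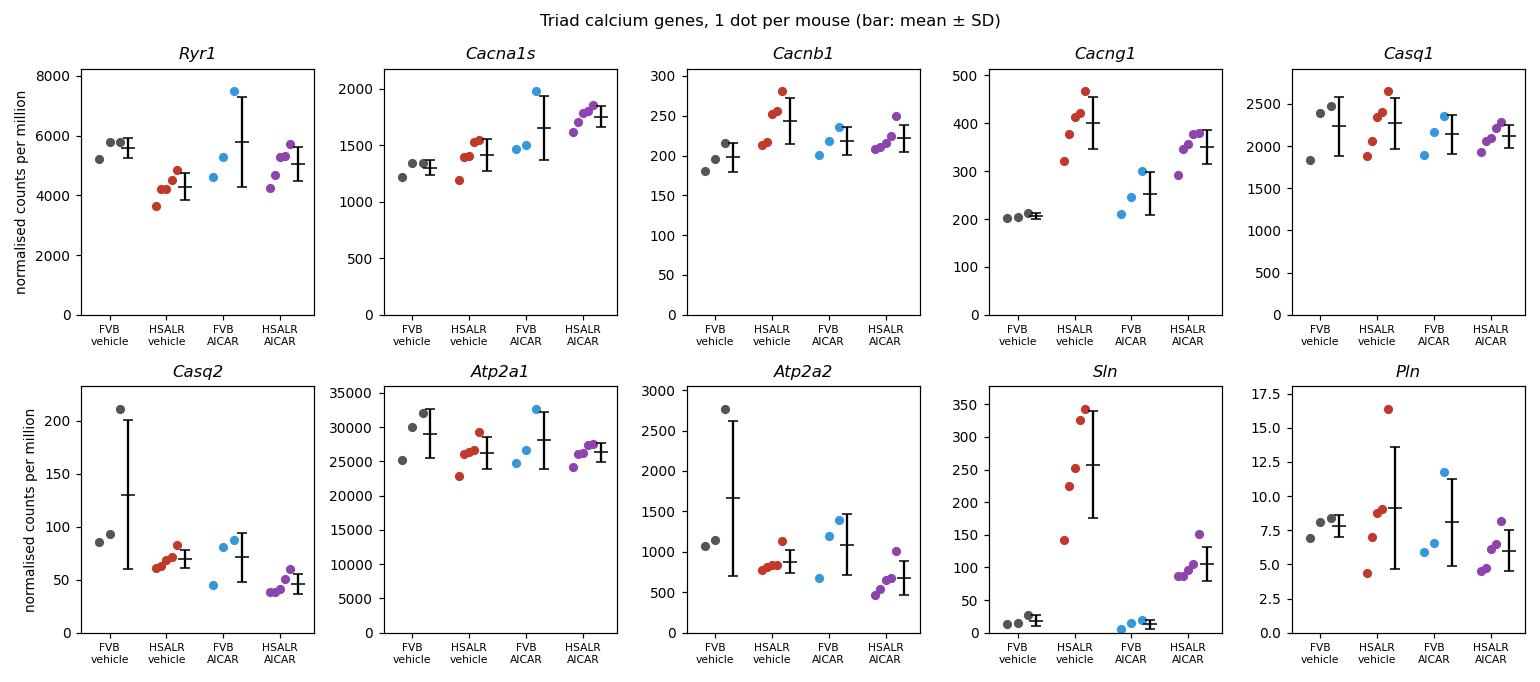
Level of each of the 10 genes in normalised CPM (vertical axes, each from 0), 1 dot per mouse in the 4 groups; bars give mean ± SD. *Sln* was at 12.8 to 27.9 in FVB mice with vehicle and at 142 to 343 in HSALR mice with vehicle, and *Casq2* and *Atp2a2* show 1 high FVB mouse with vehicle.

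The release channel and the voltage sensor form the trigger of calcium release. *Ryr1*, the release channel of the reticulum, had 5206, 5779 and 5797 normalised CPM in FVB mice with vehicle. In HSALR mice with vehicle it had 3649, 4209, 4215, 4500 and 4864, all below the lowest control. The difference was -0.38 (SE 0.14, adjusted p = 0.0473, edgeR), close to the threshold, and the call was lost when any of 7 of the 8 mice was left out, all but HSALR mouse S459 (differences of -0.43 to -0.33), and with no filter on low counts (adjusted p = 0.0593, edgeR). With every library scaled to its *Tbp* count the difference was -0.11 (adjusted p = 0.658, edgeR), against a shift of 0.28 in the median of all genes under that scaling.

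After AICAR *Ryr1* ran from 4610 to 7497 normalised CPM in FVB mice and from 4262 to 5712 in HSALR mice, with a difference of -0.20 that did not pass (adjusted p = 0.319, edgeR) and was 0.03 without FVB mouse S449. This mouse, at 7497, lay well above the other two at 4610 and 5276. That library also had the highest fast fibre sum (6 markers) of all, 114962 normalised CPM against 68926 to 94351 in the rest. In HSALR mice AICAR changed *Ryr1* by 0.24 (SE 0.12, adjusted p = 0.158, edgeR).

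*Cacna1s* encodes the pore-forming subunit of the voltage sensor. After vehicle its genotype difference of 0.12 did not pass (adjusted p = 0.414, edgeR), with 1224 to 1342 normalised CPM in FVB and 1190 to 1549 in HSALR mice. With AICAR, HSALR mice had 1620, 1704, 1784, 1808 and 1854 normalised CPM, all above the highest HSALR mouse with vehicle. The rise was 0.31 (SE 0.09, adjusted p = 0.0160, edgeR) and passed without any 1 of the 10 mice (0.25 to 0.35). Under *Tbp* scaling the value was 0.20 (adjusted p = 0.302, edgeR), with the median of all genes at -0.13.

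In FVB mice *Cacna1s* after AICAR was 1470, 1505 and 1981 normalised CPM, also above all 3 vehicle mice. That difference of 0.34 (SE 0.11) fell just short of the threshold (adjusted p = 0.0550, edgeR), while DESeq2 gave 0.35 with adjusted p = 0.0249. The 2 effects were close in size, and their difference was -0.03 (95% interval -0.34 to 0.27). HSALR mice with AICAR exceeded FVB mice with vehicle by 0.43 (SE 0.10, adjusted p = 0.00405, edgeR).

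The ratio of *Cacna1s* to *Ryr1* was nearly the same in the 3 control mice. Per base it was 0.568, 0.569 and 0.577 in FVB mice with vehicle and 0.773 to 0.845 in HSALR mice with vehicle, with no overlap. The log2 ratio was higher by 0.50 in HSALR mice (two-sided exact permutation p = 0.0179, the smallest possible, adjusted p = 0.0952). Leaving out any 1 mouse gave differences of 0.49 to 0.52 and an exact permutation p of 0.0286 to 0.0476, the smallest that the remaining mice allow. FVB mice with AICAR had ratios of 0.648 to 0.782, above all FVB mice with vehicle, where 3 mice against 3 cannot go below the exact permutation p of 0.1 that was found. After AICAR the ratios of HSALR mice, 0.732 to 0.935, overlapped those of FVB mice (difference 0.27, exact permutation p = 0.0714, adjusted p = 0.190).

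*Cacng1* encodes the gamma subunit of the voltage sensor, which in skeletal muscle limits calcium current through the channel. It had the smallest spread of the 10 genes in FVB mice with vehicle, at 202, 204 and 213 normalised CPM (coefficient of variation 2.91%). HSALR mice with vehicle had 321, 377, 412, 422 and 467 normalised CPM, all above the controls. The difference was 0.96 (SE 0.13, 1.94-fold, adjusted p = 6.09e-05, edgeR), and it passed without any 1 of the 8 mice (0.89 to 1.01).

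After AICAR the 3 FVB mice had 211, 246 and 300 normalised CPM of *Cacng1*, and the 5 HSALR mice had 293, 346, 358, 378 and 379. The highest FVB mouse, S449, overlapped with the lowest HSALR mouse. The difference was 0.47 (SE 0.12, adjusted p = 0.0132, edgeR), and it no longer passed without FVB mouse S447 or without S448, or under *Tbp* scaling. The difference between the AICAR effects of HSALR and FVB mice was -0.48 (SE 0.17, adjusted p = 0.207, edgeR), the only one of the 10 genes with an unadjusted p under 0.05 there. It came from a value of -0.19 in HSALR mice and 0.29 in FVB mice, neither of which passed alone with TMM scaling (adjusted p = 0.205 and 0.171, edgeR). With library size scaling *Cacng1* passed in HSALR mice (-0.26, adjusted p = 0.0394, edgeR), and under *Tbp* scaling the difference of effects passed (-0.80, adjusted p = 0.0479, edgeR), where the median of all genes was at -0.32.

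*Cacnb1* encodes the beta subunit, which holds the channel at the membrane and at the triad. After vehicle it was higher in HSALR mice by 0.30 (SE 0.10, adjusted p = 0.0297, edgeR), with levels of 213 to 281 normalised CPM against 180, 196 and 216 in FVB mice. The groups overlapped in the range of 213 to 216, and the call was lost without FVB mouse S446 or S450 or HSALR mouse S453, S458 or S459, and in a fit of the 2 groups alone (adjusted p = 0.0708, edgeR). After AICAR the levels were 201 to 236 in FVB and 209 to 250 in HSALR mice (0.02, 95% interval -0.18 to 0.22).

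**Figure D2:**
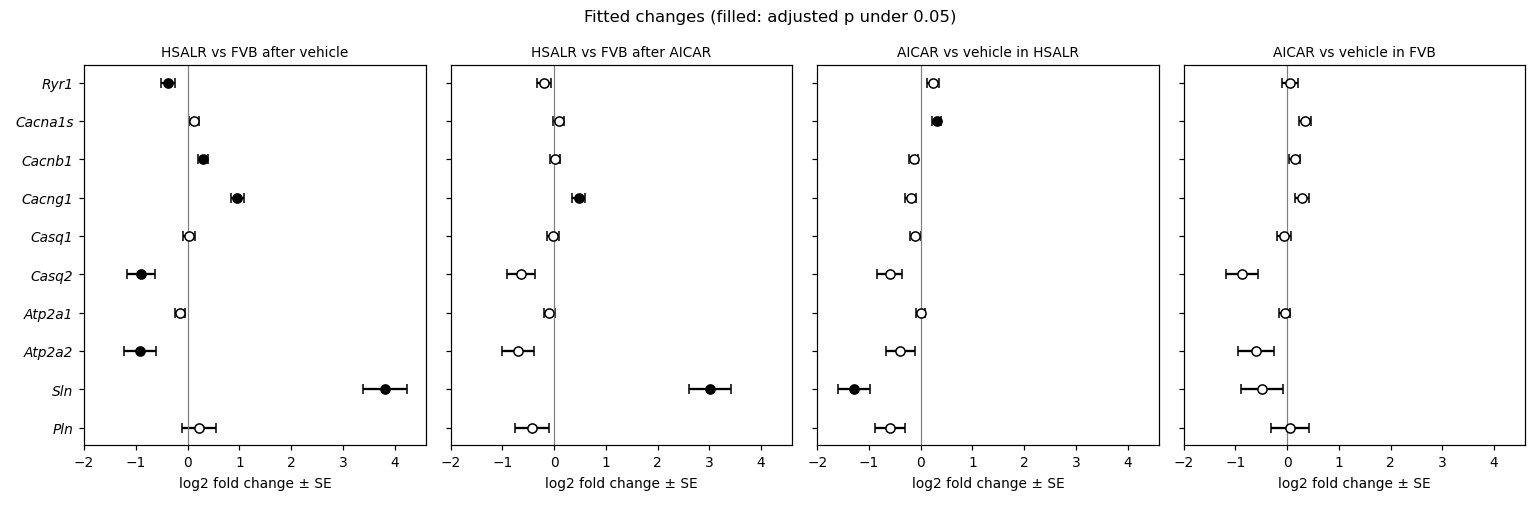
Fitted log2 fold change (horizontal axis) with its SE for each gene in 4 comparisons; filled dots have adjusted p under 0.05. Filled dots number 6 for HSALR against FVB mice after vehicle, 2 after AICAR, 2 for AICAR in HSALR mice and 0 for AICAR in FVB mice.

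Pumps and calsequestrins come as fast and slow pairs. *Atp2a1*, the fast pump SERCA1, was the most abundant member per length, with a mean of 8443 ± 1027 normalised RPKM (SD, n = 3) in FVB mice with vehicle, followed by *Casq1* with 1192 ± 185. *Atp2a1* had 25142, 29963 and 32023 normalised CPM in FVB and 22819 to 29223 in HSALR mice with vehicle. Its genotype difference was -0.15 (95% interval -0.36 to 0.07) after vehicle and -0.09 (95% interval -0.31 to 0.12) after AICAR. *Casq1*, the calcium store of fast fibres, gave 0.02 (95% interval -0.23 to 0.27) and -0.01 (95% interval -0.26 to 0.23) in the same comparisons. These intervals do not reach the difference of *Cacng1* after vehicle. Neither gene passed in any of the 6 comparisons in edgeR with TMM scaling; with library size scaling *Atp2a1* passed for HSALR mice with AICAR against FVB mice with vehicle (-0.20, adjusted p = 0.0376, edgeR).

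*Atp2a1* totals do not show which splice form was made. The gene has an alternative exon of 42 bases, exon 22 of 23 in the longest annotated transcript, at chr7:126446545-126446586 on the minus strand (GRCm38), whose inclusion is known to be lower in myotonic dystrophy. It is shown here because the reads of both forms enter the same total. Lower case marks the coding bases that both forms share, and capitals mark the bases from there to the stop codon.
Atp2a1-201, with exon 22: tcattgctcggaactatctggaggGATAA
Atp2a1-202, without exon 22: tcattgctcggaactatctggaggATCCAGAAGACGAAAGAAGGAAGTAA
The form with the exon reaches its stop 5 bases after the shared part and the form without it after 26 bases.

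*Atp2a2* encodes SERCA2, the pump of slow fibres, heart and non-muscle cells. It was at 1067, 1150 and 2768 normalised CPM in FVB mice with vehicle and at 780, 807, 835, 841 and 1138 in HSALR mice with vehicle. The highest HSALR mouse, S452, lay inside the FVB range, and the highest FVB mouse was S450. The fitted difference was -0.92 (SE 0.31, adjusted p = 0.0373, edgeR), and without S450 it was -0.33 (adjusted p = 0.415, edgeR). The call was also lost without HSALR mouse S451, S453, S458 or S459 (-0.90 to -0.89, adjusted p = 0.0635 to 0.0683, edgeR) and in a fit of the 2 groups alone (adjusted p = 0.0504, edgeR). *Casq2*, the calsequestrin of slow fibres and heart, was at 85.8, 93.3 and 211 normalised CPM in FVB mice against 61.3, 62.6, 69.0, 71.7 and 83.0 in HSALR mice, without overlap. Its difference was -0.91 (SE 0.27, adjusted p = 0.0200, edgeR), and -0.37 without S450 (adjusted p = 0.255, edgeR).

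Both genes moved with slow fibre markers from mouse to mouse. Over the 16 libraries, deviations from the group mean in log2 level correlated with those of the slow fibre sum at Pearson r = 0.98 (Spearman rho = 0.98) for *Atp2a2* and r = 0.92 (rho = 0.86) for *Casq2*; without mouse S450 r was 0.96 and 0.84 over 15 libraries. These are descriptions of libraries that share their scaling. For *Sln* r was 0.42, and 0.19 without S450; for *Pln* it was 0.36, and 0.45 without S450. Against the summed level of the 6 fast fibre markers r was -0.66 for *Sln* (-0.56 without S450), -0.44 for *Pln* (-0.50), -0.67 for *Atp2a2* (-0.49) and -0.79 for *Casq2* (-0.67). The slow fibre sum was 6587 ± 4559 (SD, n = 3) in FVB mice with vehicle, 2927 ± 558 (SD, n = 5) in HSALR mice with vehicle, 3822 ± 1543 (SD, n = 3) in FVB mice with AICAR and 2359 ± 846 normalised CPM (SD, n = 5) in HSALR mice with AICAR. Of the 7 slow fibre markers 4 were called lower and 0 higher between genotypes after vehicle, where 11.5% of all genes tested were called lower and 15.4% higher. Of 6 fast fibre markers 1 was called, *Myh1*, the myosin of type 2X fibres, which was higher in HSALR mice by 1.52 (SE 0.19, 2.87-fold, adjusted p = 4.08e-05, edgeR), at 9473 to 17612 normalised CPM against 3513 to 5408. The part of fibre composition in the *Atp2a2* and *Casq2* results was not tested, and in whole muscle fewer slow fibres and less RNA per slow fibre cannot be told apart.

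**Figure D3:**
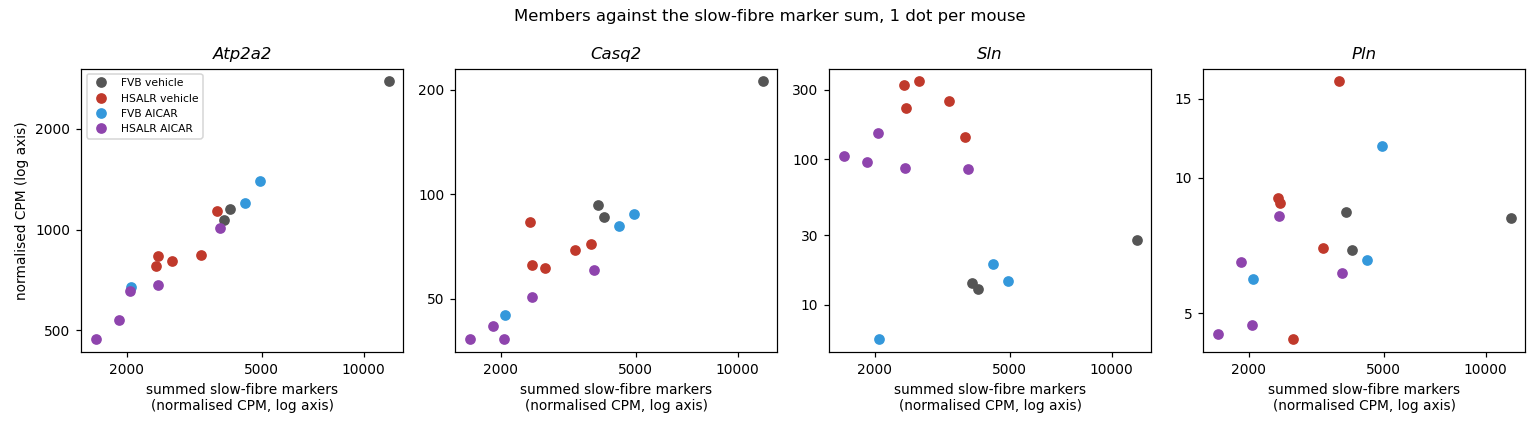
Normalised CPM of 4 members (vertical, log axis) against the summed normalised CPM of 7 slow fibre markers (horizontal, log axis), 1 dot per mouse, coloured by group. Over the 16 libraries *Atp2a2* and *Casq2* lie higher at higher marker sums. Among HSALR mice with vehicle, however, *Casq2* is highest, at 83.0, where the sum is lowest. FVB mouse S450 lies at 11851. *Sln* separates by genotype, but with vehicle the marker sums do so too (3865 to 11851 in FVB, 2444 to 3702 in HSALR mice). After AICAR only FVB mouse S449, at 2059, lies within the HSALR range of 1619 to 3770.

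After AICAR *Atp2a2* was at 675, 1199 and 1395 normalised CPM in FVB and 470 to 1014 in HSALR mice, with a difference of -0.70 (adjusted p = 0.117, edgeR). *Casq2* was at 44.8, 81.2 and 87.6 in FVB and 38.2 to 60.4 in HSALR mice (-0.64, adjusted p = 0.102, edgeR). The FVB mouse low in both, S449, was also lowest of its group for slow fibre markers, at 2059 normalised CPM; without it the genotype difference in *Casq2* passed (-0.88, adjusted p = 0.0391, edgeR). Within HSALR mice, *Casq2* with AICAR lay below all vehicle mice, but the difference of -0.60 did not pass in the edgeR fit of all 16 libraries (adjusted p = 0.0727). It passed in DESeq2 (adjusted p = 0.0342), in edgeR on the 2 groups alone (-0.60, adjusted p = 0.00618) and under *Tbp* scaling (-0.71, adjusted p = 0.0390). In FVB mice the AICAR difference in *Casq2* was -0.87 (SE 0.31, adjusted p = 0.0727, edgeR), with overlapping groups; DESeq2 gave adjusted p = 0.0254, and without S450 edgeR gave -0.33 (adjusted p = 0.420) and without S446 -1.10 (adjusted p = 0.0380). The difference between the 2 AICAR effects on *Casq2* was 0.27 (95% interval -0.55 to 1.09), and -0.27 without S450. Against FVB mice with vehicle, HSALR mice with AICAR had lower *Casq2* (-1.51, SE 0.27, adjusted p = 4.96e-04, edgeR) and lower *Atp2a2* (-1.31, SE 0.31, adjusted p = 0.00385, edgeR), both without overlap. Without FVB mouse S450 these were -0.97 (adjusted p = 0.00376) and -0.72 (adjusted p = 0.0529, edgeR).

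Within libraries, SERCA1 messages exceeded SERCA2 messages per base by 46.7, 46.4 and 15.1 to 1 in FVB mice with vehicle and by 38.6 to 60.3 to 1 in HSALR mice with vehicle. The low value was that of S450, and without it both groups overlapped widely. *Casq1* exceeded *Casq2* by 34.4, 38.7 and 11.7 to 1 in FVB mice with vehicle, and by 30.4 to 58.1 to 1 in HSALR mice with vehicle. Neither log2 ratio differed beyond the spread between mice after vehicle (0.64 and 0.81, exact permutation p = 0.107 for both, adjusted p = 0.190). Without S450 the differences were 0.10 for *Atp2a1* to *Atp2a2* and 0.26 for *Casq1* to *Casq2* (exact permutation p = 0.571 and 0.476), and leaving out other mice gave up to 0.91 and 1.13; the first had an exact permutation p of 0.0286 without HSALR mouse S452. In HSALR mice the mean log2 ratio of *Casq1* to *Casq2* was 0.52 higher with AICAR, with ratios of 45.8 to 73.7 against 30.4 to 58.1 (exact permutation p = 0.0317, adjusted p = 0.127), which failed the correction.

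**Figure D4:**
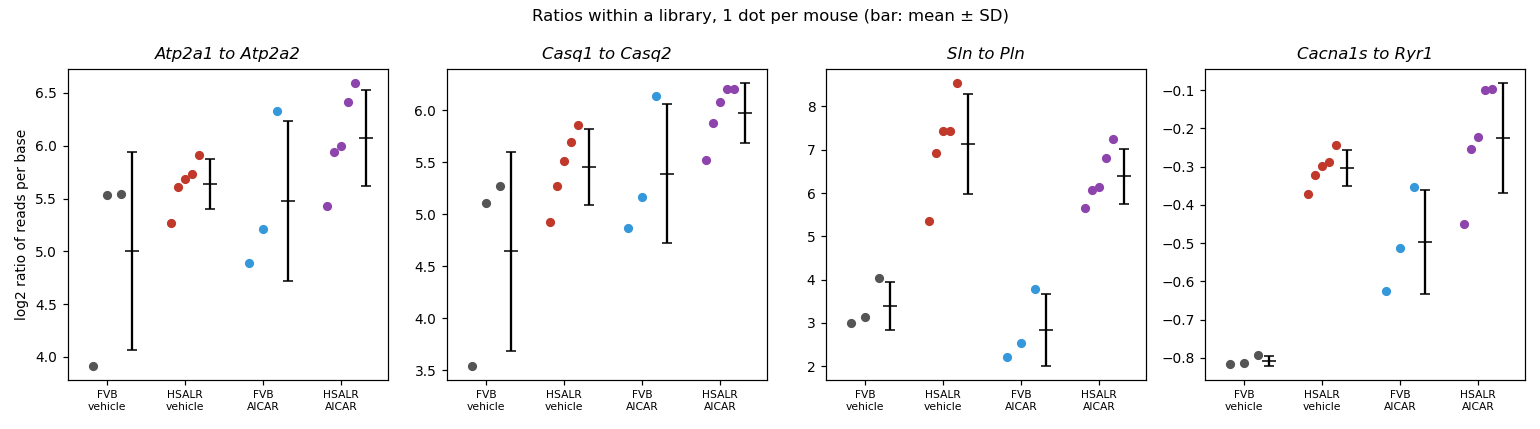
Log2 ratio of reads per base between 2 members of the same library (vertical axes, not from 0), 1 dot per mouse; bars give mean ± SD. The *Sln* to *Pln* and *Cacna1s* to *Ryr1* ratios of HSALR mice with vehicle lie above all FVB mice with vehicle, whereas both fast to slow ratios show 1 low FVB mouse.

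By counts, 3 of the 10 genes were called higher (*Cacnb1*, *Cacng1* and *Sln*) and 3 lower (*Ryr1*, *Casq2* and *Atp2a2*) in HSALR mice after vehicle, where 15.4% of all genes tested were called higher and 11.5% lower. Without mouse S450, 2 genes were called, both higher (*Cacng1* and *Sln*), beside 3208 of all 15653 genes tested. A fit of the 2 groups alone called 2 higher and 2 lower, beside 3471 of 15197. Under *Tbp* scaling the split was 4 higher and 0 lower, beside 5297 of 15459 genes called. After AICAR 2 of 10 were higher and 0 lower (12.2% and 9.64% of all genes). At an unadjusted p under 0.05 there were 4 of 10, and the share of all genes at that p is not given here. DESeq2 called 2 higher and 0 lower, beside 3988 of 15482 genes.

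AICAR raised 1 of 10 genes and lowered 1 in HSALR mice (13.7% and 13.0% of all genes). The split was 1 and 3 with library size scaling, 0 and 2 with *Tbp* scaling and 1 and 2 with DESeq2. These fits called 4289 of 15487, 2764 of 15459 and 4579 of 15482 genes. In FVB mice AICAR gave 0 calls in either direction in edgeR (8.40% and 4.77% of all genes), with 3 of 10 genes at an unadjusted p under 0.05. DESeq2 called 2 of the 10 there, beside 2670 of 15482 genes. For the difference between the 2 AICAR effects 0 genes were called (0.207% and 0.484% of all genes), with 1 at an unadjusted p under 0.05. DESeq2 called 0 of the 10 for it, beside 536 of 14881 genes. HSALR mice with AICAR against FVB mice with vehicle gave 3 higher and 2 lower (20.8% and 16.4% of all genes). The median log2 difference of the 10 genes was 0.07 after vehicle and -0.05 after AICAR between genotypes, and -0.16 for AICAR in HSALR mice, beside 0.01, 0.00 and -0.02 for all genes tested. Comparisons that share a group share its mice, and each one that uses FVB mice with vehicle contains S450.

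Other genes of the triad and of muscle calcium handling were counted from 6 lists of 50 genes, 47 of which were tested. In HSALR mice after vehicle 12 were higher, 5 lower and 30 not called, where 15.4% of all genes tested were called higher and 11.5% lower; the counts of the single lists for this comparison, given next, stand against the same shares. Among 16 partners of the release complex, 3 were higher and 2 lower. *Jsrp1*, a triad protein that binds the voltage sensor, was higher by 0.39 (SE 0.07, adjusted p = 6.42e-04, edgeR), and *Asph*, whose locus encodes junctin, by 0.26 (adjusted p = 0.0152, edgeR). *Sypl2* was also higher, by 0.33 (adjusted p = 0.0251, edgeR). *Calm3*, a calmodulin gene, was lower by 0.43 on the log2 scale (adjusted p = 5.87e-04, edgeR). Of 4 transverse tubule genes, 3 were higher: *Cav3* (0.56, adjusted p = 2.05e-04, edgeR), *Bin1* (0.41) and *Dysf* (0.27), which take part in the making and repair of tubule membrane.

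Of 6 genes for cytosolic and mitochondrial calcium, 3 were higher and 0 lower in HSALR mice after vehicle. *Micu2* (0.44) and *Mcu* (0.18), parts of the mitochondrial calcium uniporter, were among those higher. Of 5 genes of the lumen and counter-ion channels 1 was higher, *Tmem38b* (0.30). Among 7 tested genes of other pump regulators, pumps and intracellular channels, 0 were higher and 2 lower, *Atp2a3* (-0.42) and *Itpr2* (-0.22). At the surface membrane, *Atp2b3* (0.34) and *Orai1* (0.33), which encode a calcium pump and a store-operated channel, were higher and *Atp2b1* (-0.25) was lower among 9. After AICAR, 10 of the 47 genes were higher and 6 lower in HSALR mice (12.2% and 9.64% of all genes), with *Cav3* (0.33) and *Bin1* (0.32) again among those called.

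With AICAR in HSALR mice, 4 of the 47 genes rose and 7 fell (13.7% and 13.0% of all genes). *Pvalb*, the calcium buffer of fast fibres, fell by 0.73 on the log2 scale (SE 0.12, adjusted p = 6.08e-04, edgeR), and *Calm2* (-0.63) and *Jph1* (-0.48), which encodes a protein that ties reticulum to tubule, also fell. *S100a1* (0.36) and *Fkbp1a* (0.24), which bind the release channel, rose, as did *Atp2b3* (0.34) and *Stim1* (0.23), the sensor that opens store-operated channels. *Sypl2* (-0.27), which encodes the triad protein mitsugumin 29, *Cav3* (-0.27) and *Orai1* (-0.26) fell. *Sypl2*, *Cav3* and *Orai1* were all among the genes called higher in HSALR mice after vehicle, and both comparisons use the HSALR mice with vehicle. In FVB mice 2 genes rose, *Fkbp1a* (0.41) and *Calr* (0.37), and 2 fell, *Mrln* (-0.61) and *Stac3* (-0.31), where 8.40% and 4.77% of all genes were called; *Mrln* encodes myoregulin, another small inhibitor of the pump.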

How the data were processed

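Whole *gastrocnemius* RNA of 16 mice was sequenced from stranded poly(A) libraries, single-end. The authors aligned reads to mm10 with STAR 2.5.2a and deposited read counts per RefSeq gene, made with QuasR as reads starting in any exon, with 1 location kept for reads that matched several; the deposited gene length is another value of that file. Whether counting used the strand is not given in the sources used here, so reads of exons that overlap another gene (RefSeq lists *Rpl19* at *Cacnb1*, *Rabep2* at *Atp2a1*, *Cep85l* at *Pln*, *Gm17224* at *Casq1*, and *Gm26604*, *Gm38979* and *Mir1963* at *Ryr1*) cannot be assigned beyond doubt. Column names matched the sample descriptions, and 0 sample columns were left unmatched.

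Counts were tested with edgeR 4.0.16 (R 4.3.3): TMM scaling, filterByExpr, 1 mean per group over all 16 libraries, non-robust quasi-likelihood fit, Benjamini-Hochberg adjustment over 15487 genes, adjusted p under 0.05. SE is the absolute log2 fold change over the root of F, and intervals are at 95%. Ratios of 2 members were compared by two-sided exact permutation tests, adjusted over 16. The authors' methods name edgeR without a design. In simulated data with 200 genes changed by 1 on the log2 scale, the fit recovered 179 for the comparison of HSALR with FVB mice after vehicle, with 5 false calls among 15341 genes; it recovered 166 for AICAR in FVB mice, with 14 false calls among 15343 genes, and 152 for the difference of AICAR effects, with 7 among 15354. Alternatives were DESeq2 1.42.0, other scalings and filters, fits of the compared groups alone and leaving out each mouse. Gene positions came from RefSeq (GRCm38.p6), and 24374 of 24454 identifiers matched it. Named were all 10 members and, from other lists, up to 3 called genes per direction with the largest change and a mean count of at least 50; 1 gene that this rule names is not reported here. The members and lists were chosen with earlier results of these data known. No 2 libraries of a group agreed within sampling noise, and each mouse has its own number, so no samples were paired.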

Additional observations from a re-analysis of the deposited data

Results flagged for a closer look

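Of 28 groups of 5 values of a member or a ratio, 1 held a value far from the others, where chance at 1 in 20 gives 1.4. *Atp2a2* in HSALR mouse S452 with vehicle was at 1138 normalised CPM, while the other 4 mice of its group were at 780 to 841. The same library had the highest slow fibre sum of its group, 3702 normalised CPM against 2444 to 3316, and the highest *Pln* and lowest *Sln* of its group. The part of fibre composition in this value was not tested.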

How the results depend on the processing

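The lowest count of any member in a library was 328, for *Pln*. Leaving out 1 mouse gave 2 to 5 called members between genotypes after vehicle (lowest without FVB mouse S450), 1 to 3 after AICAR, 2 to 3 for AICAR in HSALR mice and 0 to 1 in FVB mice. Of 15428 to 15679 genes tested, these fits called 2826 to 4078, 2214 to 3790, 3146 to 4180 and 1143 to 1726. *Tbp* scaling gave 1 called member between genotypes after AICAR, 1 for AICAR in FVB mice and 1 for the difference of AICAR effects. Of 15459 genes tested it called 1395, 2147 and 381. Library size scaling gave 4 for AICAR in HSALR mice and 1 in FVB mice, beside 4289 and 1806 of 15487 genes. DESeq2 gave 2 in FVB mice, beside 2670 of 15482. *Tbp* scaling moved the median of all genes to 0.28 and -0.04 between genotypes after vehicle and AICAR, -0.13 and 0.19 for AICAR in HSALR and FVB mice, -0.32 for the difference of effects and 0.15 for HSALR with AICAR against FVB with vehicle.

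Reversals fell on differences that had not passed. Under *Tbp* scaling these were *Atp2a1* after vehicle (0.12), *Cacnb1* after AICAR (-0.025), *Atp2a1* in HSALR mice (-0.12), *Casq1* (0.13) and *Atp2a1* (0.14) in FVB mice, *Ryr1* (-0.12), *Casq2* (-0.081), *Atp2a1* (-0.25) and *Atp2a2* (-0.11) for the difference of effects, and *Ryr1* (0.014), *Casq1* (0.066) and *Atp2a1* (0.0038) for HSALR with AICAR against FVB with vehicle. Upper-quartile scaling reversed *Casq1* after AICAR (0.0030), *Atp2a1* in HSALR (-0.024) and *Ryr1* in FVB mice (-0.010); library size scaling reversed *Atp2a1* in HSALR (-0.072) and *Ryr1* in FVB mice (-0.013); and a minimum of 10 counts in every library reversed *Atp2a1* in HSALR mice (-0.0027).

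Leaving out 1 mouse spanned 0 for *Casq1* (-0.10 to 0.10) and *Pln* (-0.12 to 0.40) after vehicle; *Ryr1* (-0.34 to 0.031), *Cacnb1* (-0.037 to 0.080), *Casq1* (-0.093 to 0.059) and *Atp2a1* (-0.17 to 0.030) after AICAR; *Atp2a1* in HSALR mice (-0.041 to 0.046); *Ryr1* (-0.18 to 0.18), *Casq1* (-0.19 to 0.016), *Atp2a1* (-0.17 to 0.026), *Pln* (-0.33 to 0.23) and the log2 ratio of *Atp2a1* to *Atp2a2* (-0.065 to 0.77) in FVB mice; *Cacna1s* (-0.10 to 0.12), *Casq1* (-0.12 to 0.086), *Casq2* (-0.27 to 0.50), *Atp2a1* (-0.022 to 0.18) and *Atp2a2* (-0.36 to 0.46) for the difference of effects; and *Casq1* (-0.20 to 0.0010) for HSALR with AICAR against FVB with vehicle. The cause was not tested. No paired analysis was possible because each mouse carries its own number and no number is shared between groups.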
